A study of Xenopus laevis with 12 samples.

Results

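The organizer transcription factors described here are the products of sia1, sia2, gsc, otx2, lhx1, hhex, noto and crx, all of them homeobox genes. Every probe set annotated to a .L or .S copy of these 8 names was taken, the L and S copies being the pairs that Xenopus laevis keeps from its ancestral genome duplication. This gave 18 probe sets for 12 gene copies, of 32539 probe sets tested. The copies were sia1.L, sia2.S, gsc.L, gsc.S, otx2.L, otx2.S, lhx1.L, hhex.L, not.L, not.S, crx.L and crx.S. The name noto is a synonym in the gene table, whose symbols are not.L and not.S, and 3 probe sets were found through it. lhx1.L had 3 probe sets, and hhex.L, not.S, crx.L and crx.S had 2 each, numbered here in the order of their identifiers.

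The organizer is the dorsal lip of the amphibian gastrula, which induces the neural plate and patterns the body axis. Maternal Wnt/beta-catenin signalling on the dorsal side activates sia1 and sia2, and these, with Nodal signalling, activate gsc, lhx1, otx2 and other regulators. Those regulators in turn drive secreted antagonists of BMP, Wnt and Nodal signals and repress ventral genes. crx, known in Xenopus also as otx5, encodes a homeodomain protein of the Otx family that is made in the organizer and the anterior neural region, and later in the pineal gland and retina.

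RNA of whole Xenopus laevis embryos was measured on 12 arrays, 2 for each of 6 groups. For depletion of fam46a, embryos received Fam46a-MO1 (MO1, 10 ng per cell), or a mixture of Fam46a-MO2 and Fam46a-MO3 (MO2+MO3, 7 ng of each per cell). Morpholino oligonucleotides (MOs) are antisense molecules that stop an RNA from being translated or spliced. The comparison group received a control oligonucleotide (CoMO, 10 ng per cell). All embryos were injected at the 4-cell stage, on the animal side of each cell, and were collected at stage 8 (mid-blastula) or stage 10.5 (early gastrula). The design asked which genes depend on fam46a, now named tent5a, which encodes a cytoplasmic poly(A) polymerase. The labels call the 2 arrays of a group biological replicates without saying whether they came from separate clutches, so p-values measure the spread between these samples. Nor do they say which oligonucleotide blocks translation.

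Values were taken as log2, although the log base is not stated. They are centred so that the median of the 6 arrays of a stage is 0 for each probe set. They compare injections within a stage and hold no level. A probe set is called when its limma p-value, Benjamini-Hochberg adjusted over 32539 probe sets, is under 0.05. Arrays of one stage with the same replicate number deviated together (r from 0.821 to 0.864), so tests were run without a block and with a block for replicate number in each stage, and a single value given with the block alone is named as such. The 2 probe sets of tent5a.L were not called in either fit. At stage 10.5 their changes against CoMO were 0.02 and -0.10 in MO1, and 0.39 and 0.05 in MO2+MO3. The labels do not show whether the RNA level would respond, so this checks neither the labels nor the depletion. Markers of all 3 germ layers were present at stage 10.5, where 13 of 15 ectoderm, 9 of 10 mesoderm and 13 of 14 endoderm probe sets were shown to reach a log2 level of 4.

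The rounding left in the deposited numbers gives the interval in which the uncentred level of the lowest array lay (such as 2 to 4, or 4 to 8, on the log2 scale). At stage 8 this interval was below 4 for 13 of the 18 organizer probe sets, which is where all 6 TrpnX negative control probe sets lay. The exceptions were sia2.S, lhx1.L probe set 1 and the 3 probe sets of not.L and not.S, with intervals of 4 to 8. At stage 10.5 only sia2.S and crx.S probe set 1 were below 4, and 6 of 18 probe sets were at 8 or more. sia2.S was the only one with a lower interval at stage 10.5, having 4 to 8 at stage 8 and 2 to 4 at stage 10.5. Of all 32635 probe sets, controls included, 12443 had a lowest array below 4 at stage 8. At stage 10.5, 12233 were below 4 and 5372 were at 8 or more.

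For 7 of the 18 probe sets every array of stage 10.5 lay above every array of stage 8. For this, the range of the stage 8 arrays was added to the upper end of their interval. No share over all probe sets is given for this count, so it does not show whether organizer factors stand out. The lower bounds of the difference were 3.67 for crx.L probe set 1, 3.66 for otx2.L, 3.53 for crx.S probe set 2 and 1.97 for lhx1.L probe set 2, on the log2 scale. For crx.L probe set 2, hhex.L probe set 2 and gsc.L they were 1.80, 1.79 and 1.53. Thus otx2, crx, lhx1, hhex and gsc each had a probe set that was higher in the gastrula than in the blastula on every array. Whether the authors normalized the stages together is not given in the sources used here, and 4.64% of intervals were too high in simulated data, so these bounds carry no test.

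**Figure D1:**
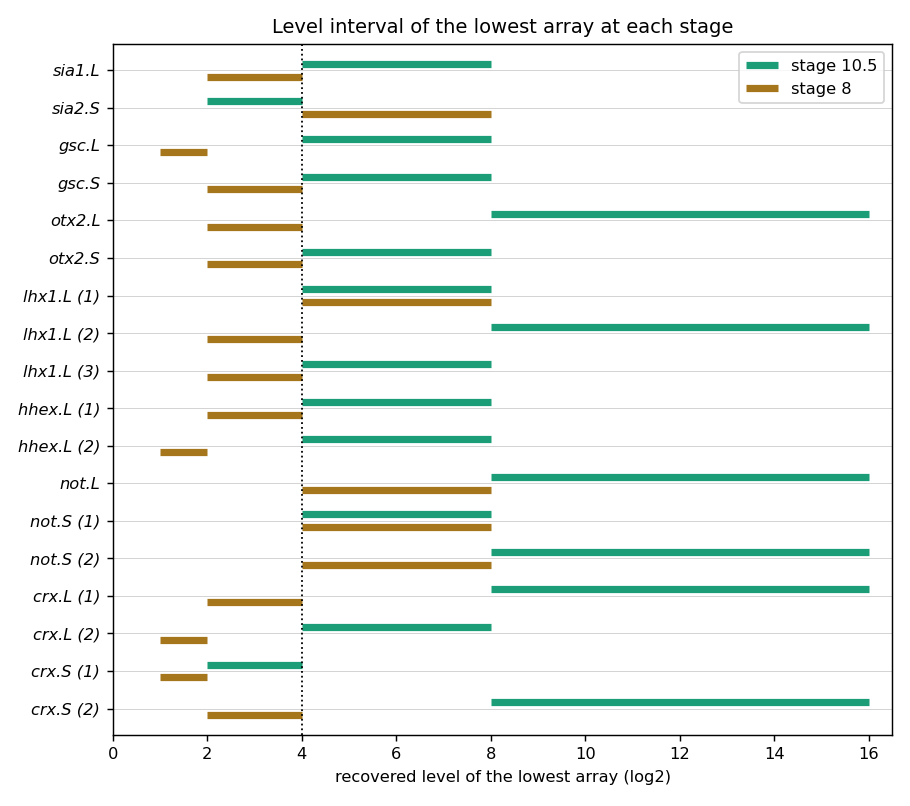
Level intervals of the 18 organizer probe sets. Bars span the interval, in log2 units, that holds the lowest of the 6 arrays at stage 8 (brown) and stage 10.5 (green), and the dotted line marks 4; 13 probe sets lie below the line at stage 8 and 2 at stage 10.5.

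At stage 8 no organizer probe set was called in either reagent. The median change of the 18 was -0.07 in MO1, with 11 below 0, beside 45.8% of all probe sets. In MO2+MO3 it was -0.22, with 14 below 0, beside 46.7%. The median of all probe sets was 0.01 in each. In MO1 against CoMO, limma called 0 of 18 without and with the block, beside 0.00615% and 0.123% of all probe sets. An unadjusted p under 0.05 was found for 2 and 3 of the 18, beside 628 and 2666 of all 32539 probe sets. In MO2+MO3 against CoMO limma also called 0 of 18 in both fits, beside 0% and 0.141% of all probe sets. Here 2 and 5 of the 18 had an unadjusted p under 0.05, beside 763 and 3544 of all probe sets. For the mean of both reagents the counts of calls were 0 and 0, beside 0% and 0.0522% of all probe sets. Unadjusted, 2 and 5 of the 18 were under 0.05, beside 664 and 2993 of all probe sets. For MO1 against MO2+MO3 the counts of calls were 0 and 0, beside 0.00615% and 0.381% of all probe sets. Unadjusted, 0 and 2 of the 18 were under 0.05, beside 794 and 3583 of all probe sets.

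In MO2+MO3 at stage 8 the lowest p-values among the organizer genes were those of not.S, whose product specifies notochord. Its probe set 1 had -0.36 and 0.14 in MO1, -0.19 and -0.14 in MO2+MO3, and 0.30 and 0.28 in CoMO. Its probe set 2 had -0.11 and 0.02 in MO1, -0.02 and -0.51 in MO2+MO3, and 0.52 and 0.15 in CoMO. On both probe sets all 4 arrays of the fam46a oligonucleotides lay below both CoMO arrays. The change of probe set 2 in MO2+MO3 was -0.60 ± 0.19 (SE, n = 2 per group), with limma adjusted p = 1 without and 0.194 with the block. In MO1 the lowest was that of lhx1.L probe set 3, with a change of 0.38 ± 0.15 (limma block adjusted p = 0.282). Both of its MO1 arrays lay above both CoMO arrays. Probe sets 1 and 2 of lhx1.L had 0.06 and -0.40 in MO1, so the gene's probe sets did not move together. Of all 32539 probe sets, both MO1 arrays lay below both CoMO arrays on 3155 and above them on 4536. For MO2+MO3 these counts were 3889 and 4581. The inducers sia1.L and sia2.S had changes of -0.26 and -0.23 in MO1, beside -0.37 and -0.30 with MO2+MO3, with block adjusted p from 0.371 to 0.737 in limma.

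No crx probe set was called at stage 8, and the order of the injections differed between them. On crx.L probe set 1 the values were 0.02 and -0.02 in MO1, -0.07 and -0.20 in MO2+MO3, and 0.04 and 0.13 in CoMO, so both reagents lay below CoMO. On crx.L probe set 2 both MO1 arrays, at 0.12 and 0.12, lay above both CoMO arrays, at -0.04 and -0.07. On crx.S probe set 2 both MO2+MO3 arrays, at -0.03 and -0.29, lay below both CoMO arrays, at 0.03 and 0.18. Probe set 1 of crx.S had -0.14 and 0.05 in MO1, -0.05 and 0.12 in MO2+MO3, and 0.11 and -0.09 in CoMO, so its 3 groups overlapped. Over the 4 crx probe sets the changes against CoMO ranged from -0.09 to 0.18 in MO1 and from -0.26 to 0.04 in MO2+MO3. The widest spread within a group belonged to otx2.S, with -1.09 and 1.01 in CoMO, and to lhx1.L probe set 2, with -0.38 and 1.18 in CoMO. At this stage the lowest array of 13 of the 18 probe sets lay in the range of the negative controls.

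**Figure D2:**
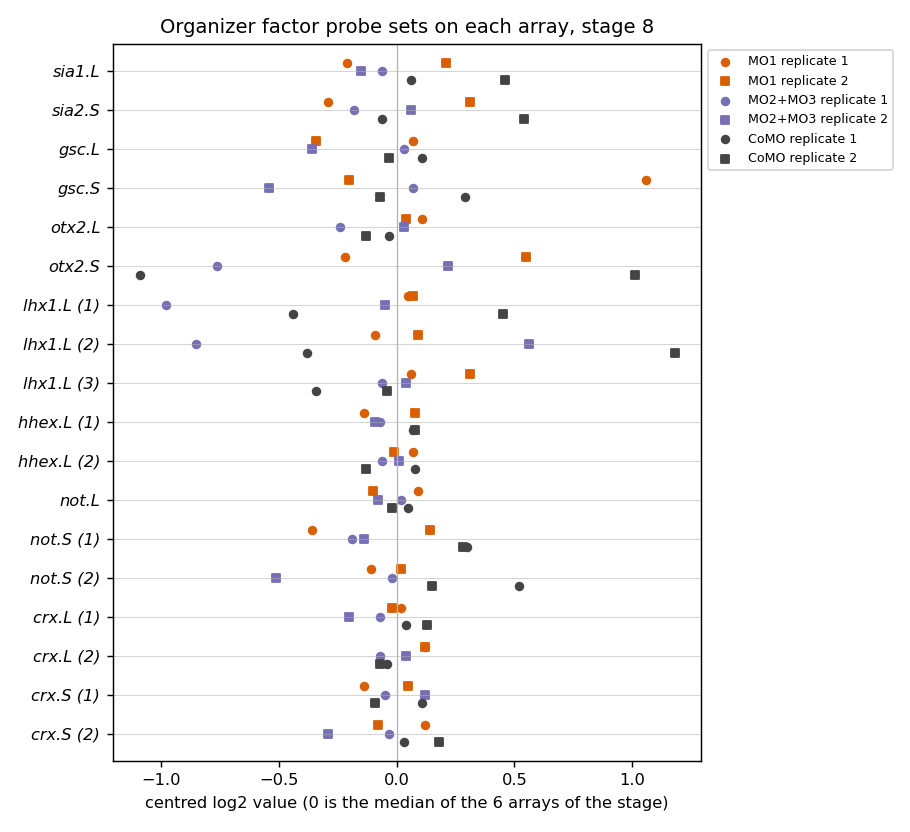
Centred log2 values of the 18 organizer probe sets on the 6 arrays of stage 8. Circles are replicate 1, squares replicate 2, colours the injection; for both not.S probe sets the 4 arrays of the fam46a oligonucleotides lie left of both CoMO arrays, and otx2.S and lhx1.L probe set 2 show the widest spread between replicates.

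At stage 10.5 the organizer factors lay lower in MO1 embryos than in CoMO embryos on 15 of 18 probe sets, beside 46.4% of all probe sets. Their median change was -0.36, where the median of all probe sets was 0.02. Without the block limma called 1 of 18 lower and 0 higher, beside 0.473% of all probe sets called lower. With the block it called 6 of 18 lower and 0 higher, beside 7.75%. The 6 were the 4 crx probe sets, gsc.L and hhex.L probe set 2. The crx probe sets had like profiles at stage 10.5 (r from 0.935 to 0.995), so they do not count as 4 separate factors. Both MO1 arrays lay below both CoMO arrays on 9 of 18 probe sets, beside 17.1% of all probe sets.

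In MO2+MO3 embryos the same factors had a median change of -0.12, where the median of all probe sets was 0, against -0.22 at stage 8. Of the organizer probe sets 12 of 18 were below 0, beside 49.4% of all, and 14 of 18 were at stage 8. Without the block 3 of 18 had an unadjusted limma p under 0.05, beside 3698 of all 32539 probe sets. After adjustment limma called 0 of 18, beside 0.344% of all probe sets called lower. With the block it called 3 of 18 lower and 0 higher, beside 7.77%, and the 3 were crx probe sets. Both MO2+MO3 arrays lay below both CoMO arrays on 5 of 18 probe sets, beside 18.4% of all. For the mean of both reagents limma called 1 of 18 lower without the block, beside 0.464%, and 4 of 18 with it, beside 9.1%. MO1 and MO2+MO3 were set against the same CoMO arrays, so the changes of the 2 reagents are not independent of each other. In RNA of whole embryos, fewer cells of a type and less RNA per cell cannot be told apart.

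**Figure D3:**
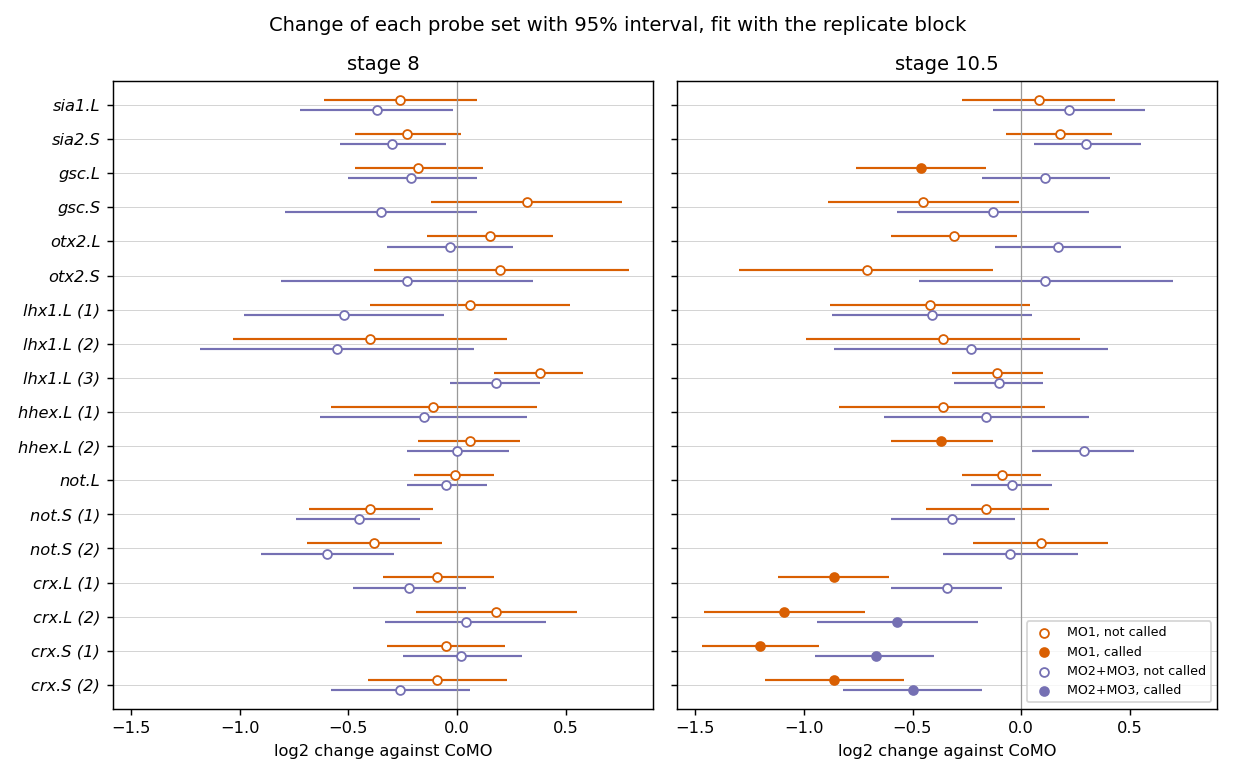
Changes against CoMO of the 18 organizer probe sets, in log2 units, with 95% intervals from the limma fit with the replicate block. MO1 is drawn above MO2+MO3 in each pair and filled points are called; at stage 8 no point is filled, and at stage 10.5 the filled points are the 4 crx probe sets, gsc.L and hhex.L probe set 2 in MO1, and 3 crx probe sets in MO2+MO3.

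The inducers at the top of the cascade were not called lower at stage 10.5, and none of their changes was negative. sia2.S, a homeodomain activator of organizer genes, had -0.07 and 0.07 in MO1, 0.12 and 0.13 in MO2+MO3, and -0.19 and -0.17 in CoMO. All 4 arrays of the fam46a oligonucleotides lay above both CoMO arrays. Of 32539 probe sets, both arrays of the reagent lay above both CoMO arrays on 6453 in MO1 and 6402 in MO2+MO3. The lowest sia2.S array lay between 2 and 4 in log2 level, in the range of the negative controls. The changes were 0.18 ± 0.23 in MO1 and 0.30 ± 0.23 in MO2+MO3 (SE), with limma adjusted p of 0.951 and 0.783 without and 0.326 and 0.0915 with the block. For its related gene sia1.L the groups overlapped, with a change of 0.08 in MO1, and of 0.22 in MO2+MO3.

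gsc encodes goosecoid, a homeodomain repressor that marks the organizer and keeps ventral genes off. gsc.L had -0.66 and -0.26 in MO1, 0.14 and 0.08 in MO2+MO3, and 0.04 and -0.04 in CoMO. The MO1 arrays lay below all others, and the MO2+MO3 arrays above both CoMO arrays. The change in MO1 was -0.46 ± 0.19 without the block (limma adjusted p = 0.438) and was called with it (SE 0.13, adjusted p = 0.0447). With the block the call was kept without MO1 replicate 2 and lost without any other of its 4 arrays (limma adjusted p from 0.0804 to 0.384). In MO2+MO3 the change was 0.11, with limma adjusted p of 0.982 and 0.646. gsc.S had a change of -0.45 in MO1, and one of -0.13 in MO2+MO3, neither called, with limma adjusted p of 0.847 and 0.998 without and 0.165 and 0.723 with the block. Its MO1 arrays, at -0.27 and -0.22, lay below its CoMO arrays, at 0.39 and 0.02.

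otx2 is required for head formation and, like crx, belongs to the Otx family. otx2.S had -0.81 and -0.47 in MO1, 0.06 and 0.31 in MO2+MO3, and -0.06 and 0.21 in CoMO, and otx2.L had -0.60 and 0.04, -0.04 and 0.42, and -0.07 and 0.12 in the same order. The MO1 arrays of otx2.S stood apart below the other 4, while those of otx2.L overlapped them. The otx2.S change in MO1, -0.71 ± 0.62, was not called without or with the block (limma adjusted p = 0.854 and 0.0995). For otx2.L the change was -0.31 in MO1 and 0.17 in MO2+MO3, also not called.

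lhx1, a LIM homeodomain activator of gsc, cer1 and chrd, was measured by 3 probe sets, none called. Their changes in MO1 were -0.42, -0.36 and -0.11, and in MO2+MO3 -0.41, -0.23 and -0.10. Probe set 1 had -0.54 and 0.01 in MO1, -0.49 and -0.01 in MO2+MO3, and 0.06 and 0.25 in CoMO, the only one of the 3 on which both reagents lay below CoMO on all arrays. Its limma adjusted p was 0.867 in MO1 and 0.851 in MO2+MO3 without the block, and 0.217 and 0.225 with it.

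hhex encodes a homeodomain repressor of the anterior endoderm that underlies the head organizer. Its probe set 2 had -0.44 and -0.07 in MO1, 0.07 and 0.73 in MO2+MO3, and -0.11 and 0.33 in CoMO, so MO1 and CoMO overlapped unless arrays of one replicate number were compared. Within replicate 1 the MO1 change was -0.33 and within replicate 2 it was -0.40. The change of -0.37 ± 0.24 was not called without the block (limma adjusted p = 0.727) and was called with it (SE 0.10, adjusted p = 0.0438), and was lost without any 1 of its 4 arrays (0.108 to 0.302). In MO2+MO3 the change of the same probe set was 0.29, with limma adjusted p = 0.0978 with the block. Probe set 1 of hhex.L had a change of -0.36 in MO1, and one of -0.16 in MO2+MO3, and in both the change within replicate 1 was negative and that within replicate 2 positive.

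not, the notochord gene, was called on none of its probe sets. The changes of not.L, not.S probe set 1 and not.S probe set 2 were -0.09, -0.16 and 0.09 in MO1, and -0.04, -0.32 and -0.05 in MO2+MO3. The limma block adjusted p ranged from 0.130 to 0.854. The 95% intervals of the blocked MO1 changes of not.L and not.S probe set 2 were -0.27 to 0.09 and -0.22 to 0.40, so a change as large as those of crx in MO1 lay outside them. The identifier of not.S probe set 1 marks it as shared between transcripts.

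**Figure D4:**
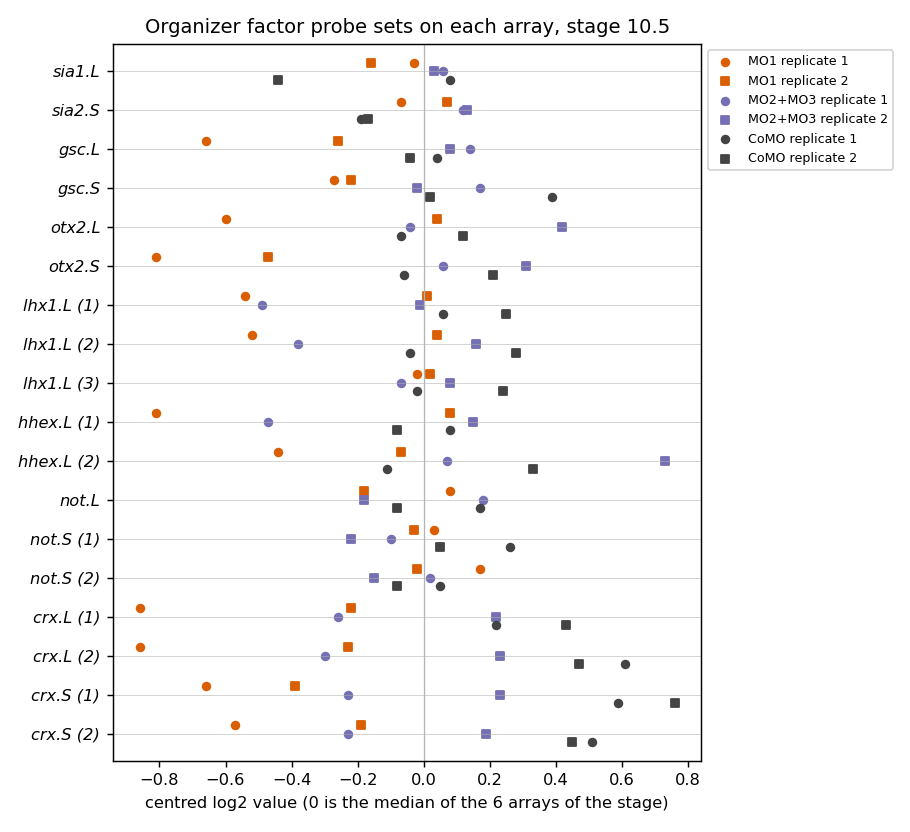
Centred log2 values of the 18 organizer probe sets on the 6 arrays of stage 10.5. Circles are replicate 1, squares replicate 2, colours the injection; on the 4 crx probe sets the MO1 arrays lie to the left and the CoMO arrays to the right, while on sia2.S the CoMO arrays lie left of all 4 others.

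The clearest difference among the organizer factors was in crx, which with the block was called lower on all 4 of its probe sets in MO1 and on 3 of them in MO2+MO3. crx.S probe set 1 had -0.66 and -0.39 in MO1, -0.23 and 0.23 in MO2+MO3, and 0.59 and 0.76 in CoMO. Both MO1 arrays lay at the bottom, both MO2+MO3 arrays in the middle and both CoMO arrays at the top, with no overlap between groups. The change in MO1 was -1.20 ± 0.18, and it was called without and with the block (limma adjusted p = 0.030 and 0.000626). In MO2+MO3 it was -0.67 ± 0.18, called only with the block (limma adjusted p = 0.166 and 0.00697). Without the block the MO1 call was lost when any 1 of its 4 arrays was left out (limma adjusted p from 0.0777 to 0.217), and with the block it was kept in each case (0.00578 to 0.0107). The blocked MO2+MO3 call was kept without CoMO replicate 2 or MO2+MO3 replicate 2 and lost without either of the other 2 arrays (0.0725 and 0.0734).

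This probe set was dim. Its lowest array, MO1 replicate 1, lay between 2 and 4 in log2 level, and its lower CoMO array between 3.25 and 5.25, so the lowest values overlap the range of the negative controls and the changes are given with no fold. The other 3 crx probe sets had lowest arrays at 8 to 16 for crx.S probe set 2 and crx.L probe set 1, and at 4 to 8 for crx.L probe set 2.

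crx.S probe set 2 had -0.57 and -0.19 in MO1, -0.23 and 0.19 in MO2+MO3, and 0.51 and 0.45 in CoMO. Again both CoMO arrays lay above all 4 others, while the ranges of the 2 reagents overlapped. Its change was -0.86 ± 0.19 in MO1 and -0.50 ± 0.19 in MO2+MO3, with limma adjusted p of 0.0905 and 0.338 without the block, and 0.00477 and 0.0429 with it. With the block the MO1 call was lost without MO1 replicate 1 (limma adjusted p = 0.0645), while for MO2+MO3 it was kept without CoMO replicate 2 and lost without any of the other 3 arrays (0.0913 to 0.346).

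crx.L probe set 1 had -0.86 and -0.22 in MO1, -0.26 and 0.22 in MO2+MO3, and 0.22 and 0.43 in CoMO. The MO1 arrays lay below both CoMO arrays, and the MO2+MO3 range met the CoMO range at 0.22. Its change was -0.86 ± 0.22 in MO1 and -0.34 ± 0.22 in MO2+MO3. It was not called without the block (limma adjusted p = 0.151 and 0.704), and with it was called in MO1 and not in MO2+MO3 (0.00185 and 0.0744). The MO1 call was kept without any 1 of its 4 arrays.

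crx.L probe set 2 had -0.86 and -0.23 in MO1, -0.30 and 0.23 in MO2+MO3, and 0.61 and 0.47 in CoMO, with both CoMO arrays above the rest. Its change was -1.09 ± 0.22 in MO1 and -0.57 ± 0.22 in MO2+MO3. Both were called only with the block (limma adjusted p = 0.00332 and 0.0455, against 0.0784 and 0.372 without). The blocked MO1 call was kept without any 1 array, and that in MO2+MO3 was kept without CoMO replicate 2 and lost without any of the other 3 (0.0985 to 0.319).

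Averaged over the probe sets of each copy, the change in MO1 was -1.03 ± 0.16 for crx.S and -0.97 ± 0.22 for crx.L (SE), and in MO2+MO3 -0.59 and -0.46. The gene copies are close relatives, so a probe set of one may bind RNA of the other, and no probe sequences were used here to separate them. On all 4 probe sets replicate 1 was the lower array of MO1 and of MO2+MO3, at -0.86 to -0.57 in MO1. Across the 18 organizer probe sets the median of MO1 replicate 1 was -0.53, against -0.11 for MO1 replicate 2. In MO1 the changes within replicate 1 ranged from -1.47 to -1.08 over the crx probe sets, and those within replicate 2 from -1.15 to -0.64.

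**Figure D5:**
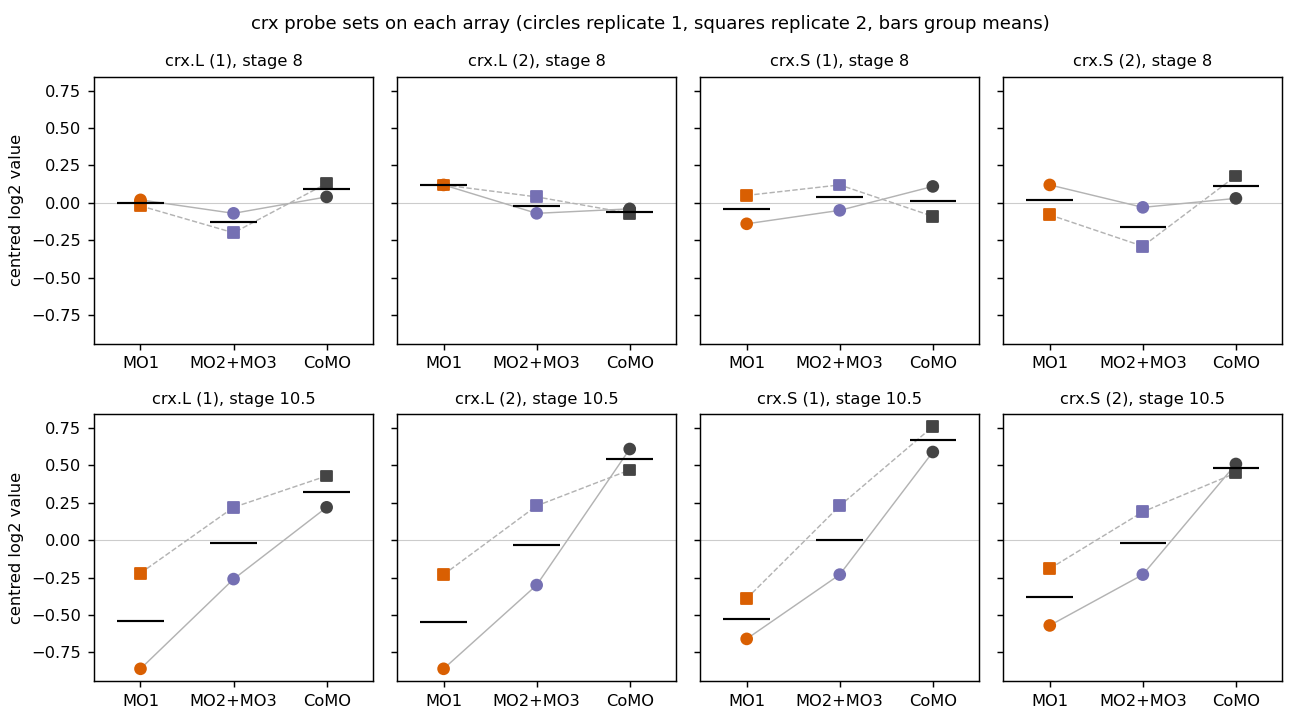
Centred log2 values of the 4 crx probe sets on each array, stage 8 in the top row and stage 10.5 in the bottom row. Lines join arrays of one replicate number and bars are group means (n = 2); at stage 10.5 each line climbs from MO1 through MO2+MO3 to CoMO on all 4 probe sets, and at stage 8 it does so only for replicate 1 of crx.S probe set 1.

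Set directly against each other at stage 10.5, the reagents differed in none of the 18 probe sets without the block in limma. Of all probe sets 0.55% were called. Unadjusted, 5 of the 18 had a limma p under 0.05 in this fit, beside 2676 of all 32539 probe sets. With the block limma called 4 of 18, beside 9.75% of all, and each was lower in MO1. hhex.L probe set 2 differed by -0.65 (limma adjusted p = 0.00643), gsc.L by -0.57 (0.0282), crx.S probe set 1 by -0.53 (0.0281) and crx.L probe set 1 by -0.52 (0.0229). With any 1 of the 4 arrays left out, limma with the block called 0 to 1 of the 18. For gsc.L and hhex.L probe set 2 the changes against CoMO had opposite signs, that in MO2+MO3 not being called, while for crx both lay below it. Probe set 1 of hhex.L had the same sign in both reagents, with -0.36 in MO1 and -0.16 in MO2+MO3. The MO1 and MO2+MO3 doses also differed, so reagent and dose cannot be told apart. The same holds for MO2+MO3 against CoMO, with 7 ng of each of MO2 and MO3 beside 10 ng of CoMO per cell.

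The change of an effect between stages was tested as the difference of the stage 10.5 and stage 8 changes. Its median over the 18 organizer probe sets was -0.44 for MO1 and 0.16 for MO2+MO3, beside 0 and -0.01 over all probe sets. Without the block, 4, 1 and 2 of 18 organizer probe sets had an unadjusted limma p under 0.05 for MO1, MO2+MO3 and their mean. Of all 32539 probe sets 1541, 1482 and 1646 did. After adjustment limma called 0 of the 18 in each, beside 0.0215%, 0.00922% and 0.00615% of all probe sets. With the block it called 3, 0 and 2, beside 4.16%, 3.84% and 5.28% of all probe sets. The 3 in MO1 were crx.L probe set 2 at -1.26, crx.S probe set 1 at -1.15 and crx.L probe set 1 at -0.78 (limma adjusted p = 0.0239, 0.0112 and 0.0343). For the mean of both reagents crx.L probe set 2 gave -0.94 and crx.S probe set 1 gave -0.92. Since these probe sets lay near background at stage 8, a stage 8 difference could have gone unseen.

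Genes that work with the organizer factors were counted from lists at stage 10.5, and with the exception of the ventral genes limma called none of them without the block. With the block, the shares of all probe sets called lower were the 7.75% in MO1 and 7.77% in MO2+MO3 given above, and those called higher were 8.48% and 9.02%. The medians of all probe sets were 0.02 and 0. Of 18 probe sets in the list of organizer signals, 10 fell and 0 rose in MO1 with the block. Under MO2+MO3 4 were called lower and 1 higher. The median changes were -0.54 in MO1 and -0.17 in MO2+MO3. The 10 of 18 stand beside 7.75% of all probe sets, and the 4 of 18 beside 7.77%. Some of the 10 are probe sets of the same gene (cer1.S, frzb2.L and admp.S), so they are not 10 separate genes. The changes of nog.L and fst.L in MO1 were -0.19 and -0.20, not called (limma block adjusted p = 0.409 and 0.213). The Nodal, BMP and Wnt antagonist cer1.S, whose lowest array was below a log2 level of 4, changed by -1.89 in MO1 and -1.16 in MO2+MO3 (limma block adjusted p = 0.000333 and 0.00249). Its second probe set had -1.14 in MO1, called (0.00290), and -0.55 in MO2+MO3, not called (0.0553). The Wnt antagonist frzb.L changed by -1.50 and -0.88 (0.00168 and 0.0154), and frzb.S by -0.79 and -0.75 (0.00165 and 0.00205). A frzb probe set with no copy named had -0.30 and -0.08, not called (0.219 and 0.783). frzb2.L changed by -1.24 in MO1, called with the block (0.000481), and had -0.34 in MO2+MO3, not called (0.0829), and its other probe set changed by -0.97 and -0.39 (0.00121 and 0.0493).

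Of 16 probe sets of other organizer and anterior transcription factors, 2 fell and 0 rose in MO1 with the block; under MO2+MO3 2 were called lower and 1 higher. Of all probe sets 7.75% and 7.77% were called lower, and both MO1 calls belong to foxa2.L. foxa2.L, a forkhead factor of notochord, floor plate and endoderm, changed by -1.54 and -1.17 on one probe set (limma block adjusted p = 0.000252 and 0.000856), and had -0.81 and -0.59 on the other, called in MO1 alone (0.0172 and 0.0539). mixer.L, an endoderm homeodomain factor, changed by -0.71 in MO2+MO3 (0.0144) and had -0.46 in MO1 (0.0760). Its other copy mixer.S had 0.05 in MO2+MO3 and 0 in MO1, not called (0.803 and 0.985). The head gene otx1.L, of the same family as otx2 and crx, rose by 0.28 in MO2+MO3 (0.0370) and had 0.10 in MO1 (0.454).

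Of 12 probe sets of cofactors, 2 fell and 1 rose in MO1 with the block; under MO2+MO3 0 were called lower and 1 higher, beside 7.75% and 7.77% of all probe sets called lower. The LIM domain partner ldb1.S changed by -0.44 in MO1 and one probe set of ssbp3.L, of the same complex, by -0.30 (limma block adjusted p = 0.0168 and 0.0306). In MO2+MO3 they had 0.07 and -0.13, not called. The other ssbp3.L probe set had 0.10 in MO1 and 0.08 in MO2+MO3, also not called (0.506 and 0.602). ldb1.L, with -0.27 in MO1 and -0.29 in MO2+MO3, was called in neither comparison with CoMO (0.0839 and 0.0617). rlim.S, a ubiquitin ligase that acts on LDB proteins, rose by 0.41 in MO1 and 0.36 in MO2+MO3 on one probe set (0.0108 and 0.0180), and had 0.25 and 0.17 on the other, not called (0.169 and 0.346).

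In the list of upstream regulators, 5 of 37 probe sets rose and 3 fell in MO1 with the block. Under MO2+MO3 3 were called higher and 3 lower. The medians were 0 in MO1 and 0.04 in MO2+MO3. The shares of all probe sets called higher were 8.48% and 9.02%, and those called lower 7.75% and 7.77%. pou5f3.3.L, an Oct4-type factor supplied by the mother, rose by 1.14 and 1.45 (limma block adjusted p = 0.00116 and 0.000442), while its embryonic relative pou5f3.1.L changed by -0.72 and -1.23 on one probe set (0.0264 and 0.00284). The other pou5f3.1.L probe set had -0.22 and -0.26, not called (0.456 and 0.357). The TGF-beta ligand gdf3.S changed by -0.54 and -0.60 (0.00457 and 0.00297). lef1.S changed by -0.58 in MO1 (0.0308) and had -0.48 in MO2+MO3, not called (0.0574). Also called higher in MO1 were a foxh1.L probe set at 0.61 (0.00149), smad2.L at 0.48 and 0.33 (0.00388 and 0.0223) and smad2.S at 0.34 (0.0197). Of these only foxh1.L was called in MO2+MO3, at 0.36 (0.0131). The other foxh1.L probe set had 0.31 and -0.17, not called against CoMO (0.131 and 0.407). wnt11.S, again with a lowest array below 4, changed by -0.58 in MO2+MO3 (0.0408) and had -0.53 in MO1 (0.0559). The separate gene wnt11b.L had -0.25 in MO1 and -0.07 in MO2+MO3, not called (0.180 and 0.748).

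Among ventral and posterior genes that organizer factors oppose, 15 of 32 probe sets fell and 2 rose in MO1 with the block, and under MO2+MO3 13 were called lower and 1 higher, with medians of -0.42 and -0.37, beside 7.75% and 7.77% of all probe sets called lower. Without the block limma called 1 lower in each, which in MO1 was ventx1.1.S at -0.74 (limma adjusted p = 0.0234). With the block, a ventx1.1.L probe set rose by 0.37 in MO1 and 0.38 in MO2+MO3 (limma block adjusted p = 0.0212 and 0.0180). Others of that copy were called lower or not called. bambi.L rose by 0.41 in MO1 (0.0281) and changed by -0.39 in MO2+MO3 (0.0320). No probe set of szl or ventx2.1 was called against CoMO. The Brachyury-type gene tbxt.2.S, also with a lowest array below 4, changed by -2.07 and -1.27 (limma block adjusted p = 0.00106 and 0.00804), and the posterior homeobox gene cdx4.L by -1.24 and -1.32 (0.000918 and 0.000698), with -1.03 and -0.94 on its other probe set (0.00545 and 0.00825). tbxt.L changed by -1.60 in MO1 (0.0173) and had -0.90 in MO2+MO3 (0.127). Its other copy tbxt.S had -0.45 and -0.36, not called (0.0638 and 0.131). evx1.L, a ventral homeobox gene, changed by -0.66 and -1.18 (0.0483 and 0.00486), and its MO2+MO3 change was called without the block too (0.0482).

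Some of the germ layer markers were also called lower at stage 10.5. In the fit with the block 10 of 15 ectoderm, 5 of 10 mesoderm and 5 of 14 endoderm probe sets fell in MO1, and 1, 0 and 0 rose. In MO2+MO3 9, 4 and 3 of them fell and 0 rose. Several of these were probe sets of the same gene. In MO1 the ectoderm genes called lower were krt12.4, dlx3, sox2 and grhl3, and the probe set that rose was of dlx3.L. The mesoderm genes were myf5, tbxt, myod1 and tbx6, and the endoderm genes were gata4 and gata6 alone. No probe set of sox3, tfap2a, fgf8, sox17a, sox17b or vegt was called against CoMO in either reagent. Of all probe sets, 7.75% and 7.77% were called lower. Without the block limma called 5 ectoderm, 0 mesoderm and 0 endoderm probe sets lower in each reagent, beside 0.473% and 0.344% of all. Copies of tbxt, mixer, sox17 and vegt stand in a marker list as well as in one of the lists above. The median of the ectoderm markers was -0.20 and -0.27 on the MO1 arrays, 0.16 and -0.10 on the MO2+MO3 arrays, and 0.60 and 0.58 on the CoMO arrays. The medians of the mesoderm markers were -0.40 and -0.15 in MO1, -0.10 and 0.03 in MO2+MO3, and 0.15 and 0.55 in CoMO. Those of the endoderm markers were -0.44 and 0.06 in MO1, -0.42 and 0.16 in MO2+MO3, and 0.01 and 0.33 in CoMO. The 4 egg and germ plasm probe sets, of which 1 rose in MO2+MO3, gave 0.03 and -0.03 in MO1, 0.09 and 0.11 in MO2+MO3, and -0.12 and -0.09 in CoMO. Thus within each replicate number the order of the groups on the crx probe sets was also that of the ectoderm, mesoderm and endoderm marker medians. For the endoderm medians the ranges of the groups overlapped. The part of these markers in the crx values was not tested.

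For each gene copy with a called probe set, the 2 probe sets of other genes with the most similar profile over the 6 arrays of stage 10.5 were taken, by Pearson's r among 15477 candidates. For crx.S probe set 1 they were nap1l1.S (r = 0.999) and uck2.S (0.994), and for crx.L probe set 1 rnd1.L (0.990) and znf451.L (0.990). For gsc.L they were pabpn1.S (0.984) and mre11.L (0.981), and for hhex.L probe set 2 atp1b3.L (0.990) and sirt1.L (0.988). With 6 arrays such values are common: 294 candidates were above 0.9 for crx.S probe set 1, 375 for crx.L probe set 1, 104 for gsc.L and 163 for hhex.L probe set 2. A similar profile did not mean a similar size, since nap1l1.S had a change of -0.14 in MO1 and -0.08 in MO2+MO3, neither called.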

How the data were processed

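The authors deposited 1 table of log2 values; RMA is the tool in the submitters' processing notes, with no version, and the log base is not stated. The deposited log2 values have a median of 0 over the 6 arrays of each stage in every probe set, a centring that no label records. From them limma 3.58.1 (R 4.3.3) fitted 1 mean per group over all 12 arrays with lmFit and eBayes, leaving out 96 control probe sets; p-values were adjusted over 32539 probe sets. Probe sets were named through the platform annotation, and 15495 had 1 gene. The script was tested on simulated data. Level intervals were recovered from single-precision rounding; in 19984 simulated probe sets 95.35% were right and 4.64% too high.

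The replicate number pairs arrays within a stage, as seen in the values (r of the replicate differences from 0.821 to 0.864 within a stage and from -0.0164 to 0.0244 between stages); the labels do not say what it shares, and the residual SD had a median of 0.175 without and 0.104 with the block. Every member probe set is named, with at most 4 genes of each list that were called in the fit with the block, by size of mean change, and for likeness the 2 nearest probe sets. Some further probe sets of these genes, or of their other copies, and some further list genes are given beside them. The members and lists were chosen with earlier results of these data known. Alternatives were the block, single stages, quantile normalization, shifted medians, robust eBayes, a filter on low values, gene means and leaving out each array. The number of arrays limits the precision.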

Additional observations from a re-analysis of the deposited data

Results flagged for a closer look

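With 2 arrays per group, single arrays were not tested as outliers. Effects that differed by a test of the difference did so only in the limma fit with the replicate block. Between MO1 and MO2+MO3 at stage 10.5 these were hhex.L probe set 2 (-0.65, adjusted p = 0.00643), gsc.L (-0.57, 0.0282), crx.S probe set 1 (-0.53, 0.0281) and crx.L probe set 1 (-0.52, 0.0229), and with any 1 of the 4 arrays left out 0 to 1 of the 18 probe sets were called. Between stages, the MO1 effect differed for crx.L probe set 2 (-1.26, 0.0239), crx.S probe set 1 (-1.15, 0.0112) and crx.L probe set 1 (-0.78, 0.0343). The mean effect of both reagents differed between stages for crx.L probe set 2 (-0.94, 0.0351) and crx.S probe set 1 (-0.92, 0.0131).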

How the results depend on the processing

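Counts of called organizer probe sets at stage 8 were 0 under every alternative run. At stage 10.5 they depended on the replicate block. With it they were 6 for MO1, 3 for MO2+MO3, 4 for their mean, 4 for MO1 against MO2+MO3 and 3 for the change between stages in any of its 3 forms, against 1, 0, 1, 0 and 0 without. On the 6 arrays of the stage alone MO1 and the mean gave 0 without the block, and with it the first 4 counts were 5, 1, 6 and 3. Quantile normalization gave 0 for the mean. A filter that left out probe sets not shown to reach a log2 level of 4 gave 0 for MO1 and the mean, since it left out crx.S probe set 1. The next settings were chosen after seeing the data: the filter with the block gave 5, 2, 3, 4 and 2, and gene means with the block gave 3, 2, 2, 4 and 2 of 12 genes. Leaving out 1 array gave 0 calls in each comparison without the block; with the block the ranges were 3 to 5 for MO1, 0 to 5 for MO2+MO3, 2 to 5 for the mean, 0 to 1 for MO1 against MO2+MO3 and 1 to 4 for the change between stages. The cause of the block's effect was not tested. The sign of the MO2+MO3 change turned for gsc.L (leave-one-out values from -0.01 to 0.24, the lowest with the block and without CoMO stage 10.5 replicate 2) and for hhex.L probe set 2 (from -0.04 to 0.62, the lowest without MO2+MO3 stage 10.5 replicate 2). The crx changes stayed negative in all 16 to 18 alternatives run per probe set, from -1.44 to -0.54 in MO1 and from -0.93 to -0.10 in MO2+MO3.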
